A study of Mus musculus with 11 samples.

Results

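Genes of paracrine growth factors with angiogenic or epithelial targets were followed across the hepatic mesenchyme of the mouse, chosen by their symbols. All 10 of them (Hgf, Vegfa, Figf, Angptl1, Angptl4, Angptl6, Mdk, Ptn, Gas6 and Hbegf) were found among the 27998 genes of the droplet (10X) gene table and in the Smart-seq2 tables. All cells came from adult male C57BL/6 mice that carry the Pdgfrb-BAC-eGFP transgene, in which the Pdgfrb promoter drives eGFP, and were sorted as GFP positive and negative for CD45 and CD102. All groups therefore carried the same transgene, and a mesenchymal cell without eGFP would not have been collected. Carbon tetrachloride (CCl4) was used to injure the centre of the lobule, either with injections over 6 weeks (chronic) or with 1 injection and a harvest at 72 h (acute), and bile duct ligation (BDL) for 14 days was used to injure the portal area. The 5 libraries of 10X held cells pooled from 3 mice each: uninjured and chronic CCl4 livers digested by protocol 1, and uninjured, acute CCl4 and chronic CCl4 livers digested by protocol 2. The 6 plates of Smart-seq2 held wells of uninjured, BDL and chronic CCl4 mice. Protocol 2 enriched cells on a density gradient before sorting, and the paper describes 2 gating strategies. In the paper, CCl4 was given in olive oil, and the acute injection followed an overnight fast. Neither the oil nor the fast is stated there for the uninjured mice.

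Hepatocyte growth factor, encoded by Hgf, is made by mesenchymal cells and acts on epithelium through the receptor MET, for which it is known as a mitogen of hepatocytes. Vegfa and Figf (the older symbol of Vegfd) encode ligands of the VEGF family, which act on endothelial cells, and the angiopoietin-like genes encode secreted proteins related to the angiopoietins. Midkine and pleiotrophin, from Mdk and Ptn, are a pair of related heparin-binding cytokines, Gas6 encodes a vitamin K-dependent ligand of the TAM receptors AXL, TYRO3 and MERTK, and Hbegf encodes a membrane-anchored ligand of the EGF receptor that is released by cleavage.

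Cells were clustered without the members and named from marker genes as fibroblast-like (FB-like), vascular smooth muscle-like (VSMC-like) and hepatic stellate cell-like (HSC-like). Protocol 1 gave 4063 and 2636 FB-like and 1514 and 2790 VSMC-like cells (uninjured and chronic CCl4), and protocol 2 gave 6850, 7293 and 5431 HSC-like cells (uninjured, 72 h and 6 weeks), so class and protocol cannot be told apart. Each class led the other classes in the summed level of its own 6 markers. That lead was fixed by the naming, which used the same markers, and is no check of it. In HSC-like cells, however, the HSC markers together were at 26668 CPM (counts of UMIs scaled to 1e6 UMIs of the class) when uninjured, 5448 CPM at 72 h and 14583 CPM at 6 weeks, and different clusters made up the class in the 3 libraries. Median UMIs per cell were between 4300 and 11344 over the libraries, and pairs of libraries shared 33 to 74 cell barcodes. Each 10X condition is 1 library, so its values have no replicate check: the intervals given are exact 95% intervals of the counts, which cover counting error only, and no test was made.

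Hgf and Angptl6 were by far highest in HSC-like cells. Hgf was at 578.3 CPM in uninjured HSC-like cells (95% interval 571.4 to 585.3), with a UMI in 94.2% of them. It was at 9.41 CPM in uninjured FB-like cells and 10.5 CPM in uninjured VSMC-like cells, with a UMI in 3.89% and 2.91% of cells. Angptl6, a secreted angiopoietin-related protein, was at 2695 CPM in uninjured HSC-like cells (2681 to 2710), against 8.92 CPM (FB-like) and 10.5 CPM (VSMC-like). Almost every uninjured HSC-like cell, 99.8%, held an Angptl6 UMI, and the share was still 98.2% after each cell was thinned to 2000 UMIs.

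**Figure D1:**
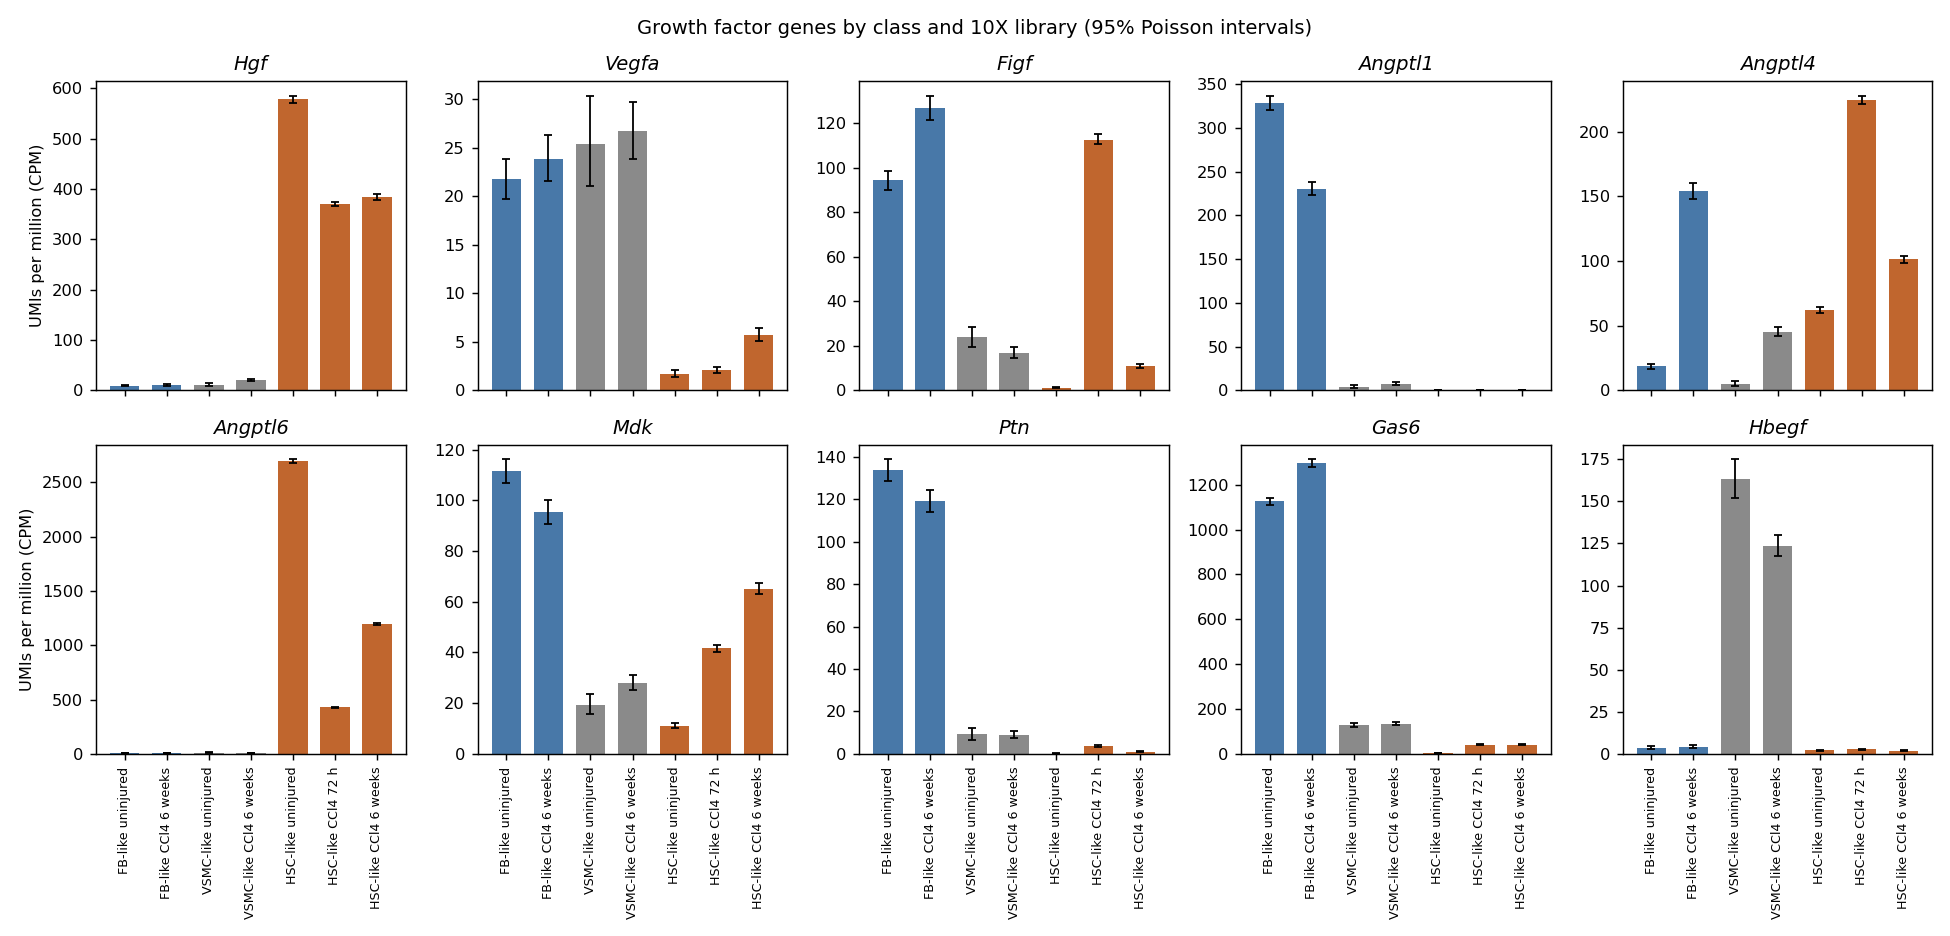
Level of each of the 10 genes (CPM, linear axis from 0) in the FB-like, VSMC-like and HSC-like cells of each 10X library. Bars are the level in 1 library and error bars its 95% Poisson interval. Hgf and Angptl6 are high in HSC-like bars only, Angptl1, Ptn and Gas6 in FB-like bars and Hbegf in VSMC-like bars, while Figf is near 0 in uninjured HSC-like cells and at 112.7 CPM at 72 h.

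Both genes were lower in HSC-like cells after CCl4, to very different degrees. Hgf was at 370.7 CPM at 72 h (366.6 to 374.7) and 383.7 CPM at 6 weeks (378.4 to 389.1), which is 0.641 (0.631 to 0.651) and 0.663 (0.651 to 0.676) times the uninjured level. Most cells still held a UMI of it, 91.5% at 72 h and 89.6% at 6 weeks. Angptl6 was at 430.0 CPM at 72 h (425.6 to 434.4) and 1194 CPM at 6 weeks (1184 to 1203), or 0.160 (0.158 to 0.161) and 0.443 (0.439 to 0.447) times the uninjured level. The share of cells with an Angptl6 UMI was 84.5% at 72 h and 95.7% at 6 weeks, and at 2000 UMIs per cell 49.9% and 78.9%. Angptl6 was thus far lower at 72 h than at 6 weeks, in the same order as the HSC marker sum above. Hgf was close at both times. Its CPM was slightly lower at 72 h, but at 2000 UMIs per cell 50.5% of cells held it at 72 h and 49.7% at 6 weeks. Reln, Ecm1, Vipr1 and Colec11 followed the order of the sum. Lrat was higher at 6 weeks (1532 CPM) than uninjured (1253 CPM), and Pth1r was lower at 6 weeks (620.3 CPM) than at 72 h (713.1 CPM). Whether the fall of the HSC marker sum had a part in the levels of Hgf and Angptl6 was not tested. Of the 6229 genes that reached 20 CPM in HSC-like cells of either library, 9.73% were at least 2-fold lower at 72 h, and of 6011 genes 1.58% were at 6 weeks. Angptl6 was the only member past that fold in the lower direction, at both times, and the median fold of all these genes was 0.862 at 72 h and 0.857 at 6 weeks.

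The Smart-seq2 wells gave the same order of classes. All 312 HSC-like wells, from uninjured mice on 1 plate, held reads of Hgf and of Angptl6. Hgf was at 1813 and 1798 RPM (reads scaled to 1e6 reads) in the 2 portions of HSC-like wells, where a portion is the wells of 1 mouse label on 1 plate. The 6 uninjured portions of FB-like wells ran from 7.15 to 106.6 RPM for Hgf with a median of 18.8, and those of VSMC-like wells from 15.1 to 81.7 RPM with a median of 30.3. Angptl6 was at 1663 and 1591 RPM in the HSC-like portions and at 12.8 RPM or less in every uninjured FB-like and VSMC-like portion. Within the VSMC-like class of 10X, Hgf was uneven: it was at 21.2 CPM (uninjured) and 38.6 CPM (6 weeks) in the cluster led by Higd1b, and at 7.69 CPM and 7.58 CPM in the cluster led by Pln. The VSMC-like level of Hgf as a whole, 10.5 CPM uninjured and 19.9 CPM at 6 weeks, stood beside a different make-up of the class, in which the Higd1b cluster was 367 of 1514 and 1168 of 2790 cells. The part of that make-up in the level was not tested.

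Promoter sequence was at hand for 7 of the 10 members, 250 bases before and 50 after each start in RefSeq (GRCm38.p6), and it is shown for 4 members of 20 CPM or more in HSC-like cells, 2 that were higher and 2 that were lower after CCl4. Capitals mark matches of TATAAA or GGGCGG on either strand, motifs picked after the sequences had been seen. The first pair of sequences below belongs to Figf (chr X) and Gas6 (chr 8), which were higher after CCl4, and the second to Angptl6 (chr 9) and Hgf (chr 5), which were lower.
Figf, chrX:164373272-164373571, plus strand: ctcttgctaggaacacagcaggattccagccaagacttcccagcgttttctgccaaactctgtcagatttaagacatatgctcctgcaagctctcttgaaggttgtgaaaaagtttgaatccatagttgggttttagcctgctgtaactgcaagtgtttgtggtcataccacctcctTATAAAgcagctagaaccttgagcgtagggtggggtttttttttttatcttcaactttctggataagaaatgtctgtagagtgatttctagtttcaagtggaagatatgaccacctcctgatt
Gas6, chr8:13494486-13494785, minus strand: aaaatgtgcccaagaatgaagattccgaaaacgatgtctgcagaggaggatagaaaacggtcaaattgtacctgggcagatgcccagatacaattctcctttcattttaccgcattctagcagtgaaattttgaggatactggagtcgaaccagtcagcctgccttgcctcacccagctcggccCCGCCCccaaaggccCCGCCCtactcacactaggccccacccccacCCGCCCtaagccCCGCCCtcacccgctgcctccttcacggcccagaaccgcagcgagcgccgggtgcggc
Angptl6, chr9:20879661-20879960, minus strand: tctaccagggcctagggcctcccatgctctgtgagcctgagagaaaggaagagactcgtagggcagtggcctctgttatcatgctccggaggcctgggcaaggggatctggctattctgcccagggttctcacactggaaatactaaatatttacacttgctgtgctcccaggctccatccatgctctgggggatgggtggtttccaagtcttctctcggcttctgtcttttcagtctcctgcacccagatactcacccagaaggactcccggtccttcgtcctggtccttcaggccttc
Hgf, chr5:16553245-16553544, plus strand: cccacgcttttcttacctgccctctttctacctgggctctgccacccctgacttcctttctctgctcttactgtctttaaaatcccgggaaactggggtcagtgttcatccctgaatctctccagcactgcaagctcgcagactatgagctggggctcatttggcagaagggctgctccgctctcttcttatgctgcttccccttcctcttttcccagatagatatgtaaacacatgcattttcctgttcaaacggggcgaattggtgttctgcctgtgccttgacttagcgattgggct

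Figf holds TATAAA once, 73 bases before its start, a motif present in 13.6% of the 32851 promoters in the same table. Gas6 holds GGGCGG, read on the opposite strand, at 4 places, 66, 51, 20 and 8 bases before its start, and 35.7% of promoters hold it at least once. Neither motif is in the windows of Angptl6 and Hgf. The Figf window has 42% G and C and 2 CpG, that of Gas6 58.3% and 17 CpG, those of Angptl6 and Hgf 55.7% and 51.3%, and the median of all promoters is 52.7%. The AP-1 motif TGANTCA was in none of the windows of the 7 members and in 7.81% of all promoters. The hypoxia response core ACGTG, in 19.6% of promoters, was only in the second of 2 Vegfa starts. No window was at hand for Angptl4, Mdk and Hbegf, so whether their promoters hold these motifs is not known here. These matches are letters in a window and say nothing about binding.

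The VEGF family genes followed different patterns. Figf, which encodes a ligand of the VEGF family, was nearly absent from uninjured HSC-like cells, at 1.16 CPM (0.874 to 1.52) with a UMI in 0.642% of them. At 72 h it was at 112.7 CPM (110.4 to 114.9) with a UMI in 42.1% of cells, and at 6 weeks at 11.0 CPM (10.1 to 11.9) with a UMI in 6.22%. The fold at 72 h was 96.8 (74.1 to 128.9), higher than that of 99.9% of the genes compared. At 6 weeks it was 9.41 (7.11 to 12.7), for a gene that reached 20 CPM in neither library. Thinned to 2000 UMIs, 14.4% of cells held a Figf UMI at 72 h, 1.80% at 6 weeks and 0.208% when uninjured, the same order at equal depth. In FB-like cells Figf was already high, at 94.4 CPM (90.2 to 98.7) uninjured and 126.8 CPM (121.5 to 132.3) at 6 weeks. In VSMC-like cells it was at 23.7 CPM and 16.8 CPM.

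The Figf level of HSC-like cells at 72 h thus lay between those of FB-like cells in the 2 libraries of the other protocol. The 6 FB markers together were at 14.0 CPM in uninjured HSC-like cells, 151.1 CPM at 72 h and 204.4 CPM at 6 weeks, against 8388 CPM in uninjured FB-like cells. The rise was uneven among these markers. Dpt was at 6.70, 75.7 and 163.0 CPM in the same 3 groups of HSC-like cells, against 2049 CPM in uninjured FB-like cells. Clec3b was at 0.0647, 0.428 and 0.695 CPM, against 2998 CPM. Mfap4, Fbln2, Cd34 and Entpd2 were also higher at both times than when uninjured. The part of the FB marker signal in the Figf level was not tested. Among the clusters of the 72 h library, Figf was at 138.3 CPM in the largest, led by Plagl1 and Sectm1a, at 121.8 CPM in the cluster led by the cell cycle genes Ube2c and Cenpf, and at 10.9 CPM in the cluster led by Alpl and Mest. The gene was therefore unevenly spread within HSC-like cells of 1 library.

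Vegfa, the main angiogenic VEGF ligand, was low everywhere in 10X. It was at 21.7 and 23.9 CPM in FB-like cells (uninjured and 6 weeks), at 25.4 and 26.7 CPM in VSMC-like cells, and at 1.70, 2.11 and 5.75 CPM in HSC-like cells (uninjured, 72 h and 6 weeks). FB-like and VSMC-like intervals of Vegfa overlapped in each library, and those of HSC-like cells lay below both. The 6-week HSC-like level was 3.38 times the uninjured level (2.63 to 4.38), both being under 20 CPM.

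The angiopoietin-like genes split by class. Angptl1, a secreted angiopoietin-related protein, was a gene of FB-like cells: 328.8 CPM uninjured (320.9 to 336.8) and 230.3 CPM at 6 weeks (223.1 to 237.6), a fold of 0.701 (0.673 to 0.729). It was at 3.78 and 7.64 CPM in VSMC-like cells. No HSC-like cell of the 3 protocol 2 libraries held a UMI of it: 0 of 6850, 0 of 7293 and 0 of 5431 cells, which by the 3 counts that a count of 0 allows limits the share of cells with a UMI to 0.0438%, 0.0411% and 0.0552%. Among FB-like clusters it was at 581.1 and 516.0 CPM (uninjured and 6 weeks) in the cluster led by Thbs4 and Sfrp2, at 307.6 and 202.4 CPM in that led by Ly6c1 and Pi16, and at 29.0 and 47.0 CPM in that led by Saa3 and Sfrp1. The levels of the 3 clusters thus did not overlap, whichever library they came from. In that order, the clusters were 1569, 1084 and 1410 of the 4063 uninjured FB-like cells. At 6 weeks they were 827, 412 and 1397 of 2636 cells. The part of this different make-up in the class levels was not tested.

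Angptl4, an inhibitor of lipoprotein lipase that is induced by fasting and hypoxia, was higher after CCl4 in all 3 classes. In FB-like cells it was at 18.6 CPM uninjured (16.7 to 20.6) and 154.1 CPM at 6 weeks (148.3 to 160.2), with a UMI in 7.58% and 49.2% of cells. In VSMC-like cells it was at 4.83 CPM (3.06 to 7.25) and 45.3 CPM (41.6 to 49.2), with a UMI in 1.45% and 16.5% of cells. In HSC-like cells it was at 61.9 CPM uninjured (59.6 to 64.2), 224.6 CPM at 72 h (221.4 to 227.7) and 101.4 CPM at 6 weeks (98.6 to 104.1). The folds were 8.30 (7.44 to 9.27) in FB-like and 9.37 (6.18 to 14.9) in VSMC-like cells at 6 weeks, and 3.63 (3.49 to 3.78) at 72 h and 1.64 (1.57 to 1.72) at 6 weeks in HSC-like cells. Among members of 20 CPM or more, Angptl4 was the only one at least 2-fold higher in FB-like cells and the only one in VSMC-like cells, where 1.36% of 6009 and 2.82% of 5771 genes were past that fold. In both classes Angptl4 reached 20 CPM only at 6 weeks, so it was counted through the injured library alone. No member of 20 CPM or more was at least 2-fold lower in either class, as were 0.366% and 0.451% of genes. All 3 clusters of FB-like cells were higher at 6 weeks: 188.2 against 35.1 CPM in the Saa3 cluster, 121.1 against 10.9 CPM in the Thbs4 cluster and 121.4 against 11.7 CPM in the Pi16 cluster. The 8.30-fold difference was therefore not carried by 1 cluster. The FB-like and VSMC-like folds come from the same pair of libraries. Any part of the oil vehicle, or of the fast before the acute injection, cannot be told apart from that of CCl4.

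**Figure D2:**
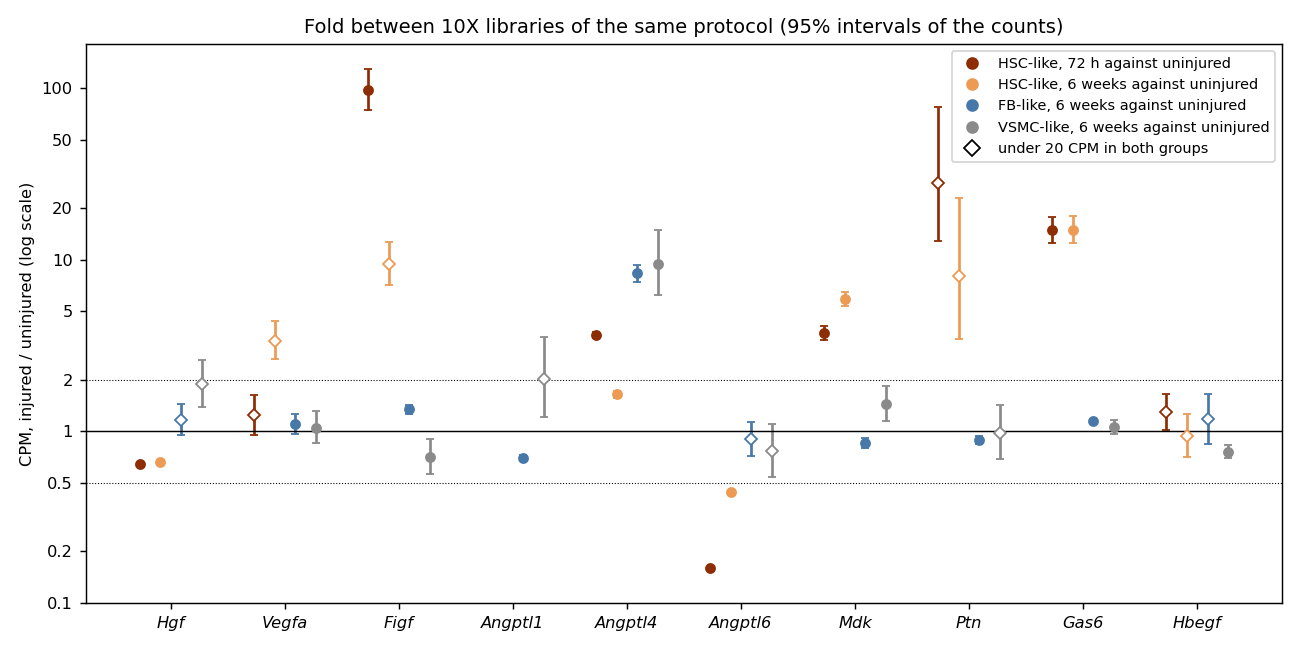
Fold of each gene's level between the injured and the uninjured 10X library of the same protocol and class (log axis), with 95% intervals of the counts. Open diamonds are genes under 20 CPM in both libraries, and dotted lines mark 2-fold either way. Figf (96.8), Gas6 (14.8), Mdk (3.75) and Angptl4 (3.63) lie above the upper line in HSC-like cells at 72 h and Angptl6 (0.160) below the lower.

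Mdk and Ptn were highest in FB-like cells, and Mdk was also higher in HSC-like cells after CCl4. Mdk was at 111.5 CPM uninjured (106.9 to 116.2) and 95.3 CPM at 6 weeks (90.7 to 100.1) in FB-like cells, and at 19.3 and 28.0 CPM in VSMC-like cells. In HSC-like cells it was at 11.1 CPM uninjured (10.2 to 12.1), 41.7 CPM at 72 h (40.3 to 43.1) and 65.1 CPM at 6 weeks (63.0 to 67.4). Those are folds of 3.75 (3.42 to 4.12) and 5.86 (5.34 to 6.44), with a UMI in 6.51%, 29.1% and 29.1% of cells. Mdk was thus higher at 6 weeks than at 72 h.

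Ptn was at 133.6 and 119.0 CPM in FB-like cells, at 9.25 and 9.09 CPM in VSMC-like cells and at 0.129, 3.63 and 1.04 CPM in HSC-like cells (uninjured, 72 h and 6 weeks). The HSC-like values rest on 6, 314 and 54 UMIs, and all lie under 20 CPM. Few FB-like cells held Ptn, 15.7% uninjured and 15.6% at 6 weeks. It was concentrated in the Saa3 cluster, with 309.0 CPM uninjured and 176.7 CPM at 6 weeks, and was at 84.5 and 92.4 CPM in the Thbs4 cluster and 20.2 and 7.73 CPM in the Pi16 cluster.

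Gas6 was a gene of FB-like cells, with a lower level in VSMC-like cells and nearly none in uninjured HSC-like cells. It was at 1125 CPM uninjured (1111 to 1140) and 1295 CPM at 6 weeks (1278 to 1313) in FB-like cells, with a UMI in 82.5% and 90.1% of cells. The FB-like clusters did not share this direction. Gas6 was at 2334 CPM uninjured and 1770 CPM at 6 weeks in the Saa3 cluster, and at 832.5 and 1136 CPM in the Thbs4 cluster. In the Pi16 cluster it was at 284.8 and 268.9 CPM. The part of the different make-up of the class in its Gas6 level was not tested. In VSMC-like cells it was at 128.2 and 135.3 CPM. In uninjured HSC-like cells it was at 2.78 CPM (2.32 to 3.304), with a UMI in 0.978% of cells. It was at 41.2 CPM at 72 h (39.8 to 42.6) and 41.3 CPM at 6 weeks (39.5 to 43.1), with a UMI in 19.0% and 12.9% of cells. The folds were 14.8 (12.4 to 17.8) at 72 h and 14.8 (12.4 to 17.9) at 6 weeks, so the intervals overlapped almost in full. In the 6-week library Gas6 was at 79.8 CPM in the cluster led by Alcam and Fam180a and 4.47 CPM in that led by Clec4g and Clca3a1, and in the 72 h library at 58.2 CPM in the Plagl1 cluster and 1.85 CPM in the Alpl cluster. With the Clec4g cluster left out of the class, an alternative set after the data had been seen, the 6-week fold of Gas6 was 22.5.

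The rise of Gas6 and Mdk in HSC-like cells came with the higher FB marker sum given above, whose part in them was not tested. The sum of the collagens Col1a1, Col1a2 and Col3a1 was higher as well, at 2035 CPM uninjured, 8933 CPM at 72 h and 3549 CPM at 6 weeks. In HSC-like cells, 4 members were at least 2-fold higher at 72 h (Figf, Gas6, Mdk and Angptl4), where 6.55% of the 6229 genes were, and 2 at 6 weeks (Gas6 and Mdk), where 2.73% of 6011 genes were. Of the 10 members, 6 reached the 20 CPM needed to be counted at 72 h and 5 at 6 weeks. Figf, Gas6 and Mdk were under 20 CPM when uninjured, so they were counted only through an injured library where they were high. The members were also chosen with earlier results of these data known, so their counts beside the shares of all genes are description only.

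Hbegf, whose product is an EGF receptor ligand, was a gene of VSMC-like cells. It was at 163.1 CPM uninjured (151.8 to 175.0) and 123.6 CPM at 6 weeks (117.5 to 129.97), a fold of 0.758 (0.695 to 0.828), with a UMI in 36.0% and 37.4% of cells. In FB-like cells of the same libraries it was at 3.72 and 4.37 CPM with a UMI in 1.77% and 2.77% of cells. HSC-like cells were at 2.11, 2.73 and 1.99 CPM. The Pln cluster was at 173.2 CPM uninjured (160.2 to 187.0) and 127.7 CPM at 6 weeks (119.8 to 136.1). The Higd1b cluster was at 124.3 CPM (103.3 to 148.4) and 117.3 CPM (108.0 to 127.3), so that its intervals overlapped between the libraries and those of the Pln cluster did not.

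Hbegf is known to be induced early in stressed or stimulated cells, so it was set beside 9 immediate early genes such as Fos and Egr1, which enzymatic digestion can raise. The sum of these 9 genes in VSMC-like cells was 15611 CPM uninjured and 11653 CPM at 6 weeks, lower in the same direction as Hbegf. When the VSMC-like cells of a library were cut into 4 equal bins by that sum, Hbegf went from 135.2 CPM in the lowest to 175.0 CPM in the highest bin when uninjured, and from 102.3 to 139.8 CPM at 6 weeks. In uninjured HSC-like cells it went from 0.577 to 3.83 CPM. The part of this response in the level of Hbegf was not tested further.

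Within HSC-like cells, 2 splits that used no member were compared in each library. Portal vein-associated (PaHSC-like) cells were set against central vein-associated (CaHSC-like) cells by a score over 81 zonation genes of the study. The position of the cells was not measured. Collagen-high cells were set against collagen-low cells by Col1a1, Col1a2 and Col3a1, with the cut set over the libraries together. PaHSC-like cells were 37.2%, 23.7% and 39.3% of HSC-like cells (uninjured, 72 h and 6 weeks), and collagen-high cells 45.8%, 94.7% and 78.1%. The splits overlapped in injury, since 82.9% of PaHSC-like and 98.4% of CaHSC-like cells were collagen-high at 72 h, and 63.0% and 87.8% at 6 weeks. Collagen-high cells were also deeper, with medians of 11518 against 8050 UMIs at 72 h and 10147 against 8655 UMIs at 6 weeks.

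The members that were higher after CCl4 in HSC-like cells were mostly higher in CaHSC-like than in PaHSC-like cells. Gas6 was at 8.13 CPM in PaHSC-like and 62.2 CPM in CaHSC-like cells at 6 weeks, a ratio of 0.131 (0.111 to 0.153). At 72 h it was at 24.9 and 45.5 CPM, a ratio of 0.548 (0.496 to 0.606), and uninjured at 0.974 and 3.87 CPM, from 17 and 112 UMIs. Mdk was at 16.1 against 48.4 CPM at 72 h, a ratio of 0.332 (0.294 to 0.375), and at 26.3 against 89.6 CPM at 6 weeks, a ratio of 0.293 (0.267 to 0.322). Figf was at 54.0 against 128.1 CPM at 72 h, a ratio of 0.422 (0.394 to 0.451). Angptl6 had the opposite tilt, with 761.9 against 342.9 CPM at 72 h, a ratio of 2.22 (2.18 to 2.27), and 1598 against 938.6 CPM at 6 weeks, a ratio of 1.70 (1.68 to 1.73). When uninjured, its ratio was 1.08 (1.07 to 1.09), close to even. Hgf stayed within 0.892 to 1.18 in the 3 libraries. Angptl4 was higher in PaHSC-like cells when uninjured, at 75.8 against 53.5 CPM. That ratio of 1.42 (1.32 to 1.53) was higher than that of 97.9% of the genes compared. Its ratio was 0.935 at 72 h and 1.01 at 6 weeks.

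Of the members at 20 CPM or more, Figf and Mdk at 72 h and Gas6 and Mdk at 6 weeks were at least 2-fold lower in PaHSC-like cells, as were 1.59% and 1.21% of the genes compared. Mdk at 72 h and Gas6 at 6 weeks reached 20 CPM only in CaHSC-like cells. Angptl6 at 72 h was at least 2-fold higher, as were 1.61% of genes, and no member was at 6 weeks, where 1.12% of genes were. In uninjured cells no member of 20 CPM or more was past 2-fold, where 0.389% of genes were higher and 0.186% lower in PaHSC-like cells. Because CaHSC-like cells were more often collagen-high, the comparison was repeated among collagen-low cells alone, of which there were 384 at 72 h and 1192 at 6 weeks. There the ratio of Mdk was 0.345 (0.265 to 0.448) and that of Gas6 0.198 (0.119 to 0.320) at 6 weeks. At 72 h the ratio of Gas6 was 0.132 (0.0291 to 0.4931), from 4 and 8 UMIs, that of Figf 0.305 (0.135 to 0.696), from 15 and 13 UMIs, and that of Mdk 0.384 (0.167 to 0.916), from 16 and 11 UMIs. The ratio of Angptl6 was 1.21 (1.10 to 1.34) at 72 h and 1.27 (1.22 to 1.31) at 6 weeks. The tilt of Angptl6 was thus smaller where collagen-high cells were left out.

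**Figure D3:**
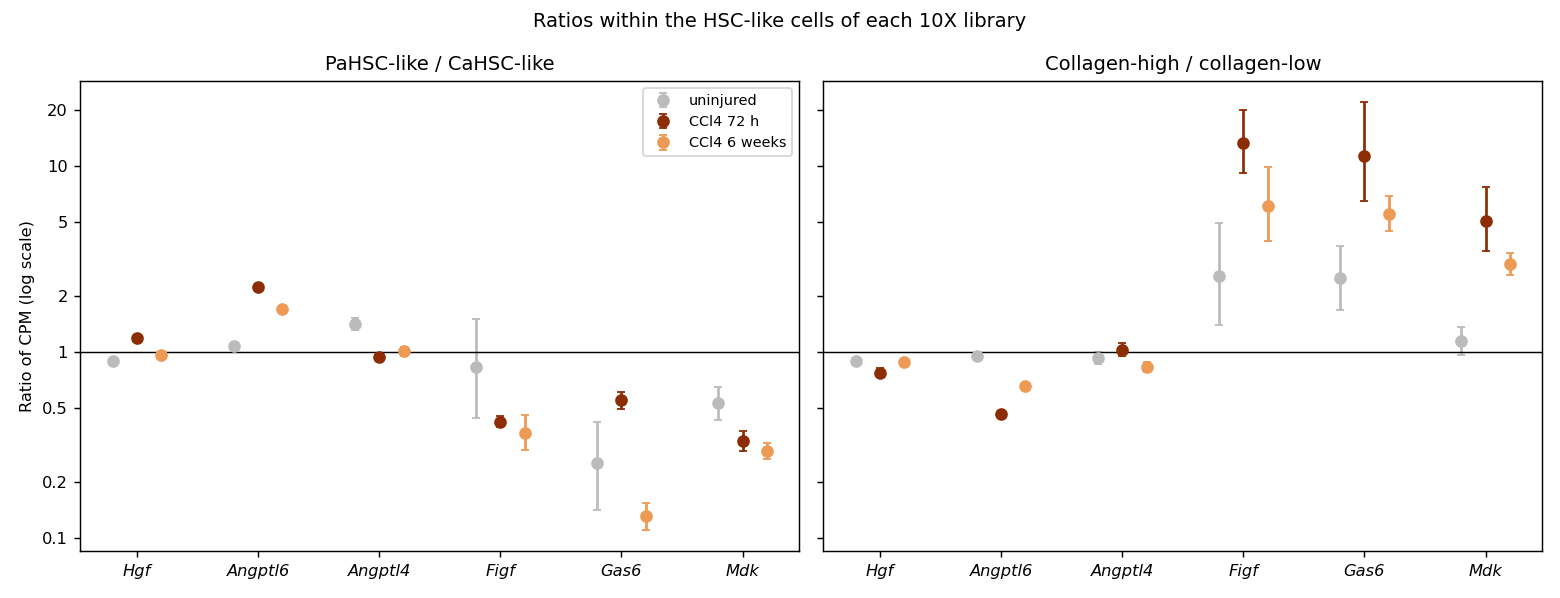
Ratio of levels within the HSC-like cells of each 10X library (log axis), for the 6 genes that reached 20 CPM in HSC-like cells of some library. PaHSC-like are set against CaHSC-like cells on the left and collagen-high against collagen-low cells on the right, with 95% intervals of the counts. Gas6, Mdk and, after CCl4, Figf lie below 1 on the left and above 1 on the right, Angptl6 after CCl4 the other way round, and Hgf lies between 0.773 and 1.18 in both.

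Collagen-high cells held more Figf, Gas6 and Mdk. At 72 h, Figf was at 116.6 CPM in collagen-high and 8.78 CPM in collagen-low cells, a ratio of 13.3 (9.18 to 19.99). Gas6 was at 42.6 against 3.76 CPM, a ratio of 11.3 (6.47 to 21.9) that was 7.45 with cells thinned to 2000 UMIs and 34.9 between the highest and lowest 25% of cells by collagen, and Mdk was at 43.0 against 8.47 CPM, a ratio of 5.07 (3.48 to 7.71). At 6 weeks the ratio was 5.51 (4.44 to 6.91) for Gas6 and 2.96 (2.60 to 3.38) for Mdk. The collagen-low cells at 72 h gave only 28 UMIs of Figf, 12 of Gas6 and 27 of Mdk, which is why these intervals are wide. Angptl6 was at 412.3 against 891.8 CPM at 72 h, a ratio of 0.462 (0.445 to 0.481), and at 1085 against 1660 CPM at 6 weeks, a ratio of 0.653 (0.642 to 0.665). These 3 higher and 1 lower member at 72 h compare with 2.05% and 1.56% of all genes past 2-fold, and the 2 higher and 0 lower at 6 weeks with 0.798% and 0.218%. At 72 h the 3 higher members reached 20 CPM only in collagen-high cells. In uninjured cells no member of 20 CPM or more was past 2-fold, beside 0.0855% of genes higher and 0% lower. Hgf was somewhat lower in collagen-high cells, with ratios of 0.898 (0.876 to 0.920) uninjured, 0.773 (0.734 to 0.814) at 72 h and 0.877 (0.848 to 0.908) at 6 weeks. Angptl4, although higher after CCl4, was not higher in collagen-high cells: its ratio was 1.03 (0.953 to 1.11) at 72 h and 0.8287 (0.776 to 0.885) at 6 weeks.

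In Smart-seq2 the portions served as replicates, 6 uninjured, 5 BDL and 4 chronic CCl4 portions for FB-like and for VSMC-like wells. Plates with the same layout may hold the same mice, so the p-values measure only the spread between portions. BDL and CCl4 portions were each set against the same uninjured portions by edgeR's quasi-likelihood test with plate as a term, and p-values were adjusted over all genes tested (Benjamini-Hochberg). No member passed an adjusted p of 0.05 in any of the 4 comparisons, and neither did 12835 genes in FB-like wells, with 0% called in both. In VSMC-like wells 0.00765% of 13078 genes were called higher in BDL, which is 1 gene, Sparcl1, named here after its value was seen, and 0% were called in CCl4. The genes at an unadjusted p under 0.05 numbered 760 (5.92%) after BDL and 403 (3.14%) after CCl4 in FB-like wells, and 983 (7.52%) and 470 (3.59%) in VSMC-like wells. By that unadjusted p, Ptn and Figf were among them in FB-like wells after BDL, Vegfa and Angptl6 in VSMC-like wells after BDL, and Mdk in VSMC-like wells after CCl4. DESeq2 on the same sums called 403, 145, 373 and 186 genes. Counts were also simulated like those of the BDL comparisons, but without a plate effect. For FB-like wells edgeR called 0% of genes changed 2-fold, 14.7% of those changed 4-fold and 37.9% of those changed 16-fold. For VSMC-like wells it called 3.03%, 30.9% and 56.1%.

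Ptn in FB-like wells was at 53.2, 113.8, 97.0, 84.4 and 31.3 RPM in the BDL portions and at 29.9, 15.7, 20.9, 26.7, 22.1 and 51.2 RPM in the uninjured ones. Most BDL portions were above every uninjured one, but 1 of them, at 31.3 RPM, was below the uninjured portion of plate 6. The log2 fold change was 1.476 (SE 0.58), with an adjusted p of 0.762 by edgeR's quasi-likelihood test. Over 21 alternatives the log2 fold change of Ptn ran from -0.302 to 1.96, and its direction changed in 1 of them. Ptn was also uneven among the wells: it was at 115.4 RPM in the FB-like cluster led by Comp, of which 105 of 119 wells were BDL, and at 20.1 and 22.6 RPM in the other FB-like clusters. In an unnamed cluster led by Cyp2e1 and Gfra2, which holds FB markers and 76 uninjured, 35 CCl4 and 0 BDL wells, Ptn was at 237.1 RPM and Hgf at 104.9 RPM.

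Vegfa in VSMC-like wells after BDL was at 5.07, 14.4, 2.84, 1.59 and 4.63 RPM, against 26.9, 11.8, 12.8, 15.9, 29.6 and 35.3 RPM in the uninjured portions. A single BDL portion, at 14.4 RPM, reached into the uninjured range. The log2 fold change was -1.84 (SE 0.60), with an adjusted p of 0.527 by edgeR and of 0.0477 by DESeq2. Over all alternatives the adjusted p ran from 0.0477 to 1. The 9 immediate early genes summed to 11118 to 17724 RPM in these BDL portions and to 16548 to 27923 RPM in the uninjured ones, and their part in the Vegfa values was not tested. Angptl6 in the same comparison had a log2 fold change of -4.77 (SE 2.15) and an adjusted p of 0.661 by edgeR, from levels of 2.84 RPM or less in BDL and 0.827 to 11.1 RPM in uninjured portions.

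**Figure D4:**
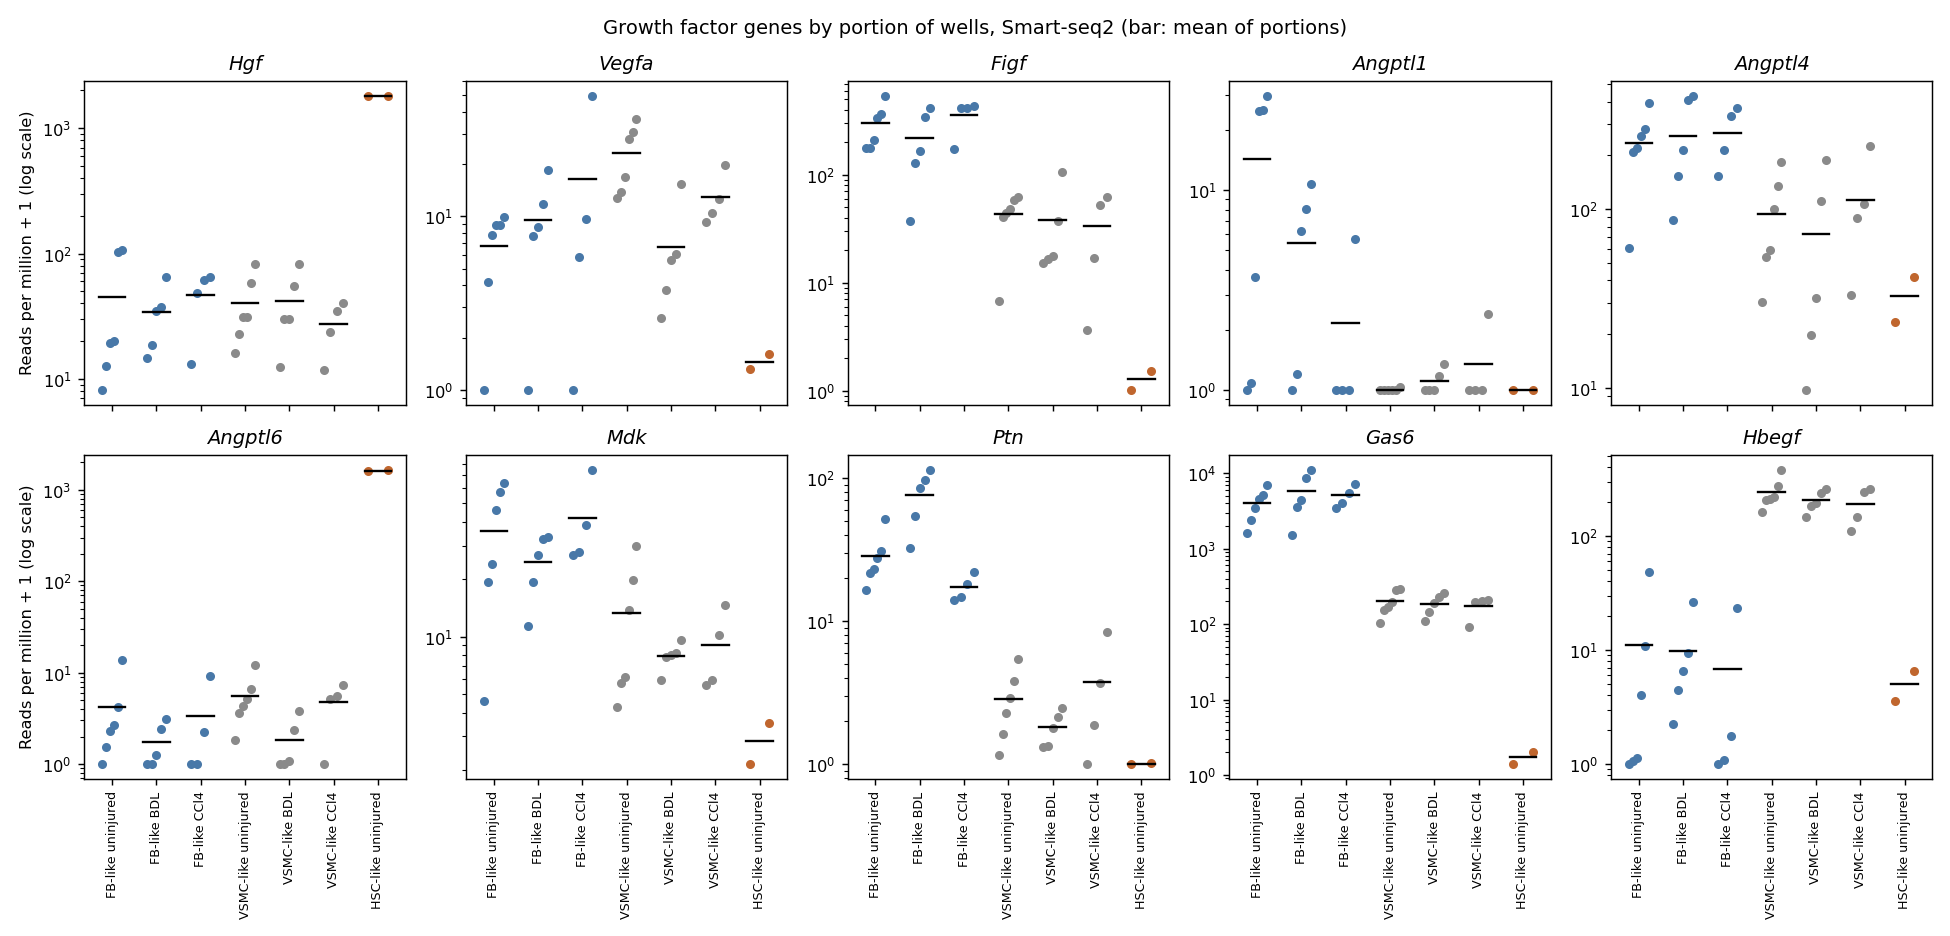
Level of each gene in each Smart-seq2 portion (RPM + 1, log axis) by class and condition, with the mean of the portions as a bar. Portions of injured and uninjured wells overlap for every gene in FB-like and VSMC-like wells, and the 2 HSC-like portions stand far above the rest for Hgf (1813 and 1798) and Angptl6 (1663 and 1591).

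None of the other members came nearer to the threshold. Figf in FB-like wells was at 217.1 ± 155.4 RPM after BDL (SD, n = 5 portions) and 300.1 ± 142.2 RPM uninjured (n = 6), with a log2 fold change of -1.05 (SE 0.46) and an adjusted p of 0.841 by edgeR. Gas6 was at 4022 ± 1918 RPM in uninjured, 5823 ± 3915 RPM in BDL and 5071 ± 1694 RPM in CCl4 portions of FB-like wells. Mdk in VSMC-like wells after CCl4 had a log2 fold change of -1.65 (SE 0.73) and an adjusted p of 1 by edgeR. Hbegf in VSMC-like wells was at 241.4 ± 76.6 RPM uninjured, 204.1 ± 44.2 RPM after BDL and 188.4 ± 72.1 RPM after CCl4 (n = 6, 5 and 4). Angptl1 was at 28.7 RPM or less in every FB-like portion and was too low to be tested in VSMC-like wells. Reads of it were in 4.52% of uninjured FB-like wells, at a mean of 13.3 RPM over the portions. That was far below its 10X values in uninjured FB-like cells, 328.8 CPM with a UMI in 39.4% of cells, and the difference was not tested. Over the 4 comparisons, no member had injured portions wholly above or below the uninjured ones. Of all genes in FB-like wells, 1.12% lay wholly above and 0.762% below after BDL, and 0.53% and 0.623% after CCl4. In VSMC-like wells those shares were 1.13% and 1.19% after BDL, and 0.383% and 0.453% after CCl4.

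Angptl4 was also unlike its 10X values. FB-like wells were at 234.9 ± 107.9 RPM uninjured (n = 6 portions), 257.3 ± 153.6 RPM after BDL (n = 5) and 266.2 ± 101.0 RPM after CCl4 (n = 4). Reads of it were in 63.3% of uninjured and 80.8% of CCl4 FB-like wells. The log2 fold change for CCl4 was 0.19 (SE 0.62) in FB-like and -0.41 (SE 0.84) in VSMC-like wells, both with an adjusted p of 1 by edgeR. In 10X the same contrast was 8.30-fold in FB-like cells. An unnamed cluster of wells led by Cxcl5 and Serpinb2, which also holds hepatocyte genes such as Alb, was 142 CCl4, 22 BDL and 2 uninjured wells and held Angptl4 at 603.9 RPM. With unnamed wells that hold more FB than VSMC marker signal counted as FB-like, the log2 fold change for CCl4 was 1.09, again with an adjusted p of 1. The difference between the assays was not tested.

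**Figure D5:**
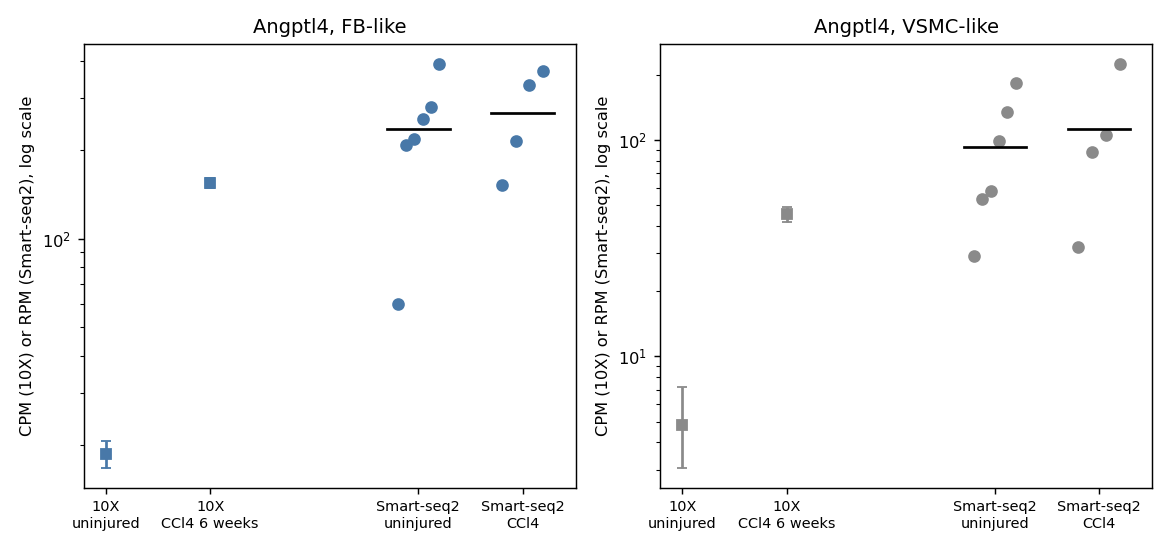
Level of Angptl4 (log axis) in FB-like cells on the left and VSMC-like cells on the right, as CPM in 10X (squares, 95% Poisson interval) and RPM in Smart-seq2 portions (circles, bar at the mean). In FB-like cells the 10X libraries are at 18.6 and 154.1 CPM, and the Smart-seq2 means at 234.9 (uninjured) and 266.2 RPM (CCl4).

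The genes most like each member over the 32 Smart-seq2 sums of a portion and class were ranked by Pearson's r of log2(RPM + 1) among 11518 genes, as a description of sums that share plates and differ mainly by class. Hgf was nearest to Gdf2, Reln and Fcna (r = 0.855, 0.844 and 0.843), and Angptl6 to Nr1h5, Bmp10 and Acap1 (0.901, 0.897 and 0.896). Gas6 was nearest to Srpx, Scpep1 and Igfbp4 (0.933, 0.930 and 0.923), Figf to Mfap4, Gas6 and Colec12 (0.926, 0.918 and 0.908), and Ptn to Adcy7, Fxyd6 and Cda (0.937, 0.919 and 0.919). Hbegf was nearest to Lama5, Myh11 and Notch3 (0.953, 0.951 and 0.933), with 66 genes above an r of 0.9. The other 4 had looser neighbours: Vegfa had Mrps18a, Sap18 and Gamt (0.752, 0.744 and 0.726), Angptl1 had Hhatl, 1700024P16Rik and Zcchc5 (0.851, 0.749 and 0.742), Angptl4 had Vit, Mt1 and Omd (0.808, 0.769 and 0.768), and Mdk had Ctsa, Rassf2 and Ptges (0.7999, 0.796 and 0.792).

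The wider pathway was read from 5 lists of 75 genes. Of 16 other ligands, 5 reached 20 CPM in HSC-like cells at 72 h, and 0 were at least 2-fold higher and 2 lower: Angptl2, at 579.3 CPM uninjured and 216.7 CPM at 72 h, and Pros1, the other TAM receptor ligand, at 176.9 and 67.9 CPM. Of 25 receptors and co-receptors, 9 were measured there and none was past 2-fold in either direction, nor in any other comparison. Axl was at 67.8, 107.6 and 79.9 CPM in HSC-like cells (uninjured, 72 h and 6 weeks), while Met, the receptor of HGF, was at 0.0216, 0.0926 and 0.0772 CPM. Of 15 genes of release and activation, 2 of 8 measured were at least 2-fold higher at 72 h: Plat, which encodes tissue plasminogen activator, at 4.40 and 57.4 CPM, and Adam12, a metalloprotease able to cleave HBEGF, at 5.80 and 55.6 CPM. Plat was also past 2-fold at 6 weeks, with 64.4 CPM. The median fold at 72 h was 0.953 for other ligands, 0.944 for receptors and 1.14 for release and activation, beside 0.862 for all genes.

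Of 10 hypoxia response genes, 2 were measured in HSC-like cells at 72 h and 4 at 6 weeks, and 1 was past 2-fold, Pgk1 at 6 weeks with 9.94 and 23.7 CPM. Ca9 of this list was not found in 10X under that symbol. The list's summed level was 367.4, 485.7 and 467.5 CPM in HSC-like cells (uninjured, 72 h and 6 weeks). For FB-like cells it was 426.1 CPM uninjured and 358.9 CPM at 6 weeks, most of it Ldha (289.5 and 220.7 CPM). Other genes of the list went either way there, such as Bnip3 (32.1 and 43.5 CPM) and Ndrg1 (44.4 and 29.9 CPM). Any part of hypoxia in the levels of Angptl4 or Vegfa was not tested. Of 9 immediate early genes, 4 were at least 2-fold lower at 72 h, the largest 3 being Fosb (496.4 and 190.4 CPM), Ier2 (947.4 and 405.7 CPM) and Ier3 (197.6 and 89.99 CPM), and Nr4a1 alone was higher at 6 weeks, with 95.4 and 210.3 CPM. In VSMC-like cells Pros1 was the single list gene past 2-fold, at 22.3 and 45.2 CPM, and in FB-like cells there was none. No list gene passed the adjusted p of 0.05 in Smart-seq2. There the hypoxia list in FB-like wells after BDL had a median log2 fold change of 0.76 beside 0.13 for all genes. Its summed levels were 532.0 to 737.9 RPM against 189.9 to 484.2 RPM in the uninjured portions. The list of other ligands lay wholly apart too, in the lower direction, at 594.1 to 1114 RPM against 1230 to 1887 RPM. Its median log2 fold change was -0.40. For all other lists and comparisons of Smart-seq2 the summed levels of injured and uninjured portions overlapped. How often sums of other genes would lie apart was not computed. By edgeR's quasi-likelihood test, the lowest adjusted p was 0.716 among the hypoxia genes and 0.376 among the other ligands. Vegfa in FB-like wells after BDL had a log2 fold change of -0.02 (SE 1.62), and a link of it to either list was not tested.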

How the data were processed

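The authors deposited UMI counts per gene and cell for 5 libraries of 10X Chromium (Cell Ranger 2.1.0, mm10, per the submitters' processing notes) and read counts per gene and well for 6 plates of Smart-seq2, aligned with STAR to mm10 with eGFP and spike-in sequences. Cells with under 300 genes or over 30% mitochondrial UMIs were left out. Wells were left out if over 3 median absolute deviations below the median in reads or genes, or above it in the percent of spike-in reads. Wells with many reads or genes were kept. This kept 2065 of 2292 wells with a mouse label, with a median of 445482 reads. The 10X libraries held 25965670 to 86664085 UMIs.

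Cells were thinned to 2000 UMIs and clustered without the members on 2000 variable genes and 10 principal components (30 neighbours, Leiden resolution 0.8; igraph 0.11.9, leidenalg 0.10.2, scikit-learn 1.9.0), and clusters were named from 6 markers per class. The cluster led by Clec4g, which is also an endothelial marker, was kept as HSC-like after its genes had been seen. Called doublets were kept and left out as an alternative. Levels are UMIs (CPM) or reads (RPM) of a class scaled to the same total of 1e6, with exact Poisson intervals, and folds of 2 or more were counted among genes of at least 20 CPM in the higher group.

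For Smart-seq2, reads were summed over the wells of a class in each portion with at least 5 such wells and tested with edgeR 4.0.16 (R 4.3.3; glmQLFit and glmQLFTest, plate and condition as terms, Benjamini-Hochberg over all genes, threshold 0.05), with DESeq2 1.42.0 as an alternative. The script was tested on simulated data. Portions of a plate did not deviate together: over 5 plates, the correlation of uninjured with injured deviations from the group means was between -0.0129 and 0.146 in FB-like and between -0.124 and 0.0225 in VSMC-like wells.

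The members and the gene lists were chosen with earlier results of these data known. All 10 members are named throughout, with the 3 genes most like each, and from the lists at most the 3 genes with the largest change past the threshold (10X: 2-fold).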

Additional observations from a re-analysis of the deposited data

Results flagged for a closer look

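In 11 of 60 groups of portions, 1 Smart-seq2 portion lay far from the others of its group by Dixon's test. Its rate of about 1 in 20 by chance assumes independent normal values. These RPM values include zeros, and the genes share portions. A group with reads in only 1 portion is always flagged, so no excess can be read from the count. Several of the 11 rest on a single well or on very few reads. Hbegf in FB-like wells was at 47.5 RPM in the uninjured portion of plate 2, next to 9.75 RPM in the nearest, with 57.7% of its reads from 1 of 16 wells, and at 22.6 RPM in a CCl4 portion of plate 5, next to 0.775 RPM, with 98.6% from 1 of 8 wells. Angptl6 in FB-like wells was at 12.8 RPM in the uninjured portion of plate 1, next to 3.16 RPM, and at 8.21 RPM in a CCl4 portion of plate 3, next to 1.27 RPM. Angptl1 had reads in only 1 portion of 3 groups, at 4.67 RPM in FB-like CCl4 wells, 0.0306 RPM in uninjured VSMC-like wells and 1.41 RPM in VSMC-like CCl4 wells.

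The other portions were of members with more reads. Vegfa in VSMC-like wells after BDL was at 14.4 RPM in a portion of plate 1, next to 5.07 RPM. Figf was at 104.5 RPM in a VSMC-like BDL portion of plate 2, next to 36.1 RPM, and at 173.9 RPM in an FB-like CCl4 portion of plate 5, below the nearest at 411.8 RPM. Gas6 in VSMC-like wells was at 91.5 RPM in a CCl4 portion of plate 3, below the nearest at 196.7 RPM.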

How the results depend on the processing

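Of the 10 pairs of a member and a 10X comparison past 2-fold, none changed direction under another scaling, thinning, doublet removal or removal of cells with 3 markers of another type. The fold of Figf at 72 h ran from 92.2 to 105.7, that of Gas6 from 11.6 to 16.2 at 72 h and from 13.7 to 22.5 at 6 weeks, and that of Angptl4 from 7.47 to 8.48 in FB-like cells. The number of members past 2-fold between PaHSC-like and CaHSC-like cells, 5 over the 3 libraries, was 3 with the highest against the lowest 25% of the score. Those no longer past it were Figf and Angptl6 at 72 h. Over all alternatives the ratio ran from 0.274 to 0.589 for Figf and from 1.21 to 2.11 for Angptl6. Mdk at both times and Gas6 at 6 weeks stayed past 2-fold in every alternative. In Smart-seq2, the number of genes called rested on the test and filter. Without the plate block, 29 (FB-like) and 43 (VSMC-like) genes were called after BDL, and no member. DESeq2 called 403 (BDL) and 145 (CCl4) genes in FB-like wells, with 373 and 186 in VSMC-like ones, and edgeR with no low-count filter 210, 24, 148 and 18. With unnamed wells added, 1 gene was called in FB-like wells after CCl4. Leaving out 1 portion in turn gave 0 to 4 genes in VSMC-like wells after BDL, 0 without uninjured portions 1 or 2 or BDL portions 1 or 4 and 4 without uninjured portion 4 or BDL portion 5. Vegfa in that comparison was the only member to pass the threshold in any alternative, with DESeq2. The cause of these differences was not tested.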

Other observations

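Wells of unnamed Smart-seq2 clusters entered no comparison. In the cluster led by Cxcl5 and Serpinb2, Angptl4 was at 1149, 885.6, 492.6 and 333.3 RPM in the 4 CCl4 portions and at 67.8 and 121.6 RPM in BDL portions with at least 5 such wells. In the cluster led by Cyp2e1 and Gfra2, Ptn was at 349.2, 156.1, 488.6 and 204.0 RPM in uninjured portions and at 204.1, 78.5 and 192.9 RPM in CCl4 portions. Among VSMC-like wells, Figf was at 195.6 RPM and Gas6 at 679.3 RPM in the cluster led by Actc1.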
